A study of Mus musculus with 18 samples.

Results

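Interferon-stimulated genes are described here as a list of 38 genes that interferons are known to induce in mouse cells. A gene was followed where a probe that the array platform names with its symbol had a detection p below 0.01 on 3 or more arrays, and the brightest such probe stood for the gene. Of the 38 genes, 37 had a named probe and 26 passed this filter, out of 8446 genes that passed in all. The other 12 were Ifit1, Isg20, Oas1a, Oas3, Oasl1, Mx1, Ifih1, Ifi44, Iigp1, Rtp4, Xaf1 and Cxcl10; Ifi44 was not named on the platform and the other 11 passed on at most 2 arrays, so nothing below covers them.

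The cells were pre-B cells grown from bone marrow of mice of 4 to 6 weeks with mixed C57BL/6 and BALB/c ancestry, expanded for 7 to 10 days in 5 ng/mL interleukin 7 (IL-7), the cytokine that keeps pre-B cells dividing. All 3 genotypes carried an immunoglobulin heavy chain transgene (μIgH) and a Bcl2 transgene, which keeps cells alive without the cytokine; the sources used here do not name the promoters that drive them. Art-/-:Nfkb2-/- cells lack both NF-κB2 (p100/p52) and Artemis, which opens DNA hairpins left at breaks cut by the RAG recombinase. Art-/- cells lack Artemis and keep the RAG-made DNA breaks unrepaired, and Rag1-/- cells lack RAG1 and make none. Each genotype had 3 independent cultures, sampled 2 days after IL-7 was removed (day 2, "withdrawn") and in IL-7 (day 0), giving 6 groups of 3 arrays and 18 arrays. The groups are called Art:Nfkb2, Art and Rag below, withdrawn or in IL-7. The study asked how breaks made by RAG act on signalling in pre-B cells.

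Interferons signal through receptor-bound JAK kinases. Type I interferon activates a complex with STAT2 and IRF9 (ISGF3) that binds the interferon-stimulated response element (ISRE), and interferon gamma acts through the gamma-activated site (GAS). The induced proteins sense viral nucleic acid, block viral replication, attack parasite-containing vacuoles and cut and carry peptides for MHC class I, and several of them, such as IRF1, also answer to NF-κB.

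RefSeq promoter windows, from 250 bases before to 50 after each annotated start on build GRCm38.p6, were matched for 29 of the 38 genes; Oas2, Mx1, Mx2, Usp18, Dhx58, Ifi27l2a, Iigp1, Rtp4 and Zbp1 had no entry. The letters of the ISRE (GAAA, any 2 bases, GAAA, on either strand) occurred in the window of 15 of these 29 genes (51.7%) and of 3.99% of the 27025 genes with a window. The letters of the GAS (TTCNNNGAA, either strand; it reads the same on both strands) occurred in 8 of the 29 (27.6%) and in 9.55% of all. Among the genes that passed the array filter, 10 of 20 with a window held the ISRE letters and 6 of 20 the GAS letters. The 4 windows below are shown up to 25 bases after the start. Oasl2, Irf1 and Ddx58 are the genes called in most comparisons (6 of 9 each), and Gbp2, chosen after its values were seen, had the largest fall on withdrawal in 2 of the 3 genotypes. Capitals mark an ISRE match in Ddx58 and Gbp2 (on the strand of the gene both read as the reverse complement: TTTC, any 2 bases, TTTC) and a GAS match in Irf1, whose window is the first of 2; the Oasl2 window holds neither set of letters.
Oasl2, chr5:114896684-114896958, plus strand: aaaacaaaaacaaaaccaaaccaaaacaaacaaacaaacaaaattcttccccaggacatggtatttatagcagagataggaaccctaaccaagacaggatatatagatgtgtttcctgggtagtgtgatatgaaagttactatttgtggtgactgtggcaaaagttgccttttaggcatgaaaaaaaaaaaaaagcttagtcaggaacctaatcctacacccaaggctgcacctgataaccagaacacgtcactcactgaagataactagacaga
Irf1, chr11:53769764-53770038, plus strand: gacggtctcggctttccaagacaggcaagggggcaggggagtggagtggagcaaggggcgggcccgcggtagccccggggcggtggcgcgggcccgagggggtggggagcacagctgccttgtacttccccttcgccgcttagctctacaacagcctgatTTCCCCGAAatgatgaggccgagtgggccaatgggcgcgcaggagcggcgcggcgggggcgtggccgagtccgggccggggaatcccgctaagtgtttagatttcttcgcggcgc
Ddx58, chr4:40239801-40240075, minus strand: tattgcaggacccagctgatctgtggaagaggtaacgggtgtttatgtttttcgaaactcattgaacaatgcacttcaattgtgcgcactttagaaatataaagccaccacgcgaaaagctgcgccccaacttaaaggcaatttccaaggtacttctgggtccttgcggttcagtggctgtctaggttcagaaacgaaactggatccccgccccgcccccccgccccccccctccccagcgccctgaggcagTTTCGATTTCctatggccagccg
Gbp2, chr3:142620413-142620687, plus strand: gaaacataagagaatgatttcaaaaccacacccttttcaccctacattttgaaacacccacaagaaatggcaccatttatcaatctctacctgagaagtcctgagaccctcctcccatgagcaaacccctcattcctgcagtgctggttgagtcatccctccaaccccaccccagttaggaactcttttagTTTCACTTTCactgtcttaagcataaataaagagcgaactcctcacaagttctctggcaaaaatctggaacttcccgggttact
Tap1 (plus strand) and Psmb9 (minus strand) lie head to head on chromosome 17, and their 300-base windows share 275 bases.

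Between 10091 and 10894 of 25697 probes were detected on each array, and 10 to 12 of the 12 pre-B markers on the platform were detected on all arrays of each group. The level of these markers differed between genotypes. Withdrawn, 6 of the 12 were called lower and 0 higher than in Rag cells, in Art:Nfkb2 and in Art cells. Of all genes, 13% and 8.89% were lower there. Summed, the markers read 122604 to 125724 in withdrawn Art:Nfkb2, 121426 to 132796 in withdrawn Art and 160177 to 179000 in withdrawn Rag arrays. The Nfkb2 probe read 9.21 ± 0.18 in withdrawn Art:Nfkb2 cells and 8.80 ± 0.05 in withdrawn Art cells (log2 signal, mean ± SD, n = 3), and the Rag1 probe was brightest in Rag cells (12.72 ± 0.27 withdrawn); where either probe lies relative to the deleted part is not known here, so these probes check nothing and the groups are named as labelled. The Y-linked Eif2s3y was detected in all 3 Rag cultures, in none of the Art cultures and in Art:Nfkb2 culture 3 alone, so for Art against Rag the sex of the mice and the genotype cannot be told apart. Art:Nfkb2 cultures 1 and 2 lacked that signal too, so sex also goes with much of Art:Nfkb2 against Rag. Without culture 3, sex and genotype cannot be told apart in that comparison either. Summed signal of the 18 macrophage and granulocyte markers on the platform ran from 8085 to 11870 in withdrawn and 17619 to 27316 in IL-7 Art:Nfkb2 arrays, from 3512 to 4053 and 7343 to 8740 in Art arrays, and from 1724 to 7888 and 7788 to 23406 in Rag arrays. Itgam, Camp and Ccr2 were undetected in every group, as were the T cell genes Cd3e, Cd3d, Cd3g, Cd4, Cd8a and Cd5 and, of 8 plasmacytoid dendritic cell markers, Ccr9, Clec10a and Lair1. Other markers of these cells were present. On all arrays of a group, 3 to 4 of the 8 plasmacytoid dendritic cell markers were detected. The same held for 0 to 2 of 8 T cell markers and 2 to 3 of 8 NK cell markers. In these bulk cultures, fewer cells of a type and less RNA per cell cannot be told apart.

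On IL-7 withdrawal, 11 of 26 members were called in Art:Nfkb2, 12 in Art and 7 in Rag cells, where 40.6%, 45% and 44.4% of all genes were. The guanylate-binding GTPases Gbp2 and Gbp3, the OAS-family gene Oasl2 and the immunoproteasome subunit Psmb9 fell in all 3 genotypes, while no member rose in all 3; over all genes tested, 12.5% fell and 13.6% rose in all 3. In Art:Nfkb2 cells 2 members rose and 9 fell of 26 (adjusted p at or below 0.05, limma), where 22.7% of all genes were higher and 17.9% lower. In Art cells 4 rose and 8 fell (all genes 26.2% higher and 18.8% lower), and in Rag cells 3 rose and 4 fell (all genes 25% higher and 19.4% lower). The members' median log2 difference, withdrawn minus in IL-7, was -0.41 in Art:Nfkb2, -0.18 in Art and -0.07 in Rag cells, or -0.25, -0.06 and -0.01 with undetected genes set to their bound, against 0.09, 0.11 and 0.10 for all genes. Under median scaling of the arrays, 1 member rose and 9 fell in Art:Nfkb2, 0 rose and 6 fell in Art, and 1 rose and 5 fell in Rag cells. That scaling moved the all-gene median by 0.09, -0.01 and -0.11 in the same order. The share of all genes called under it is not given, so these counts show only how the member counts moved. The Psmb9 call in Art:Nfkb2 cells was lost under median scaling (-0.43, adjusted p = 0.0761).

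**Figure D1:**
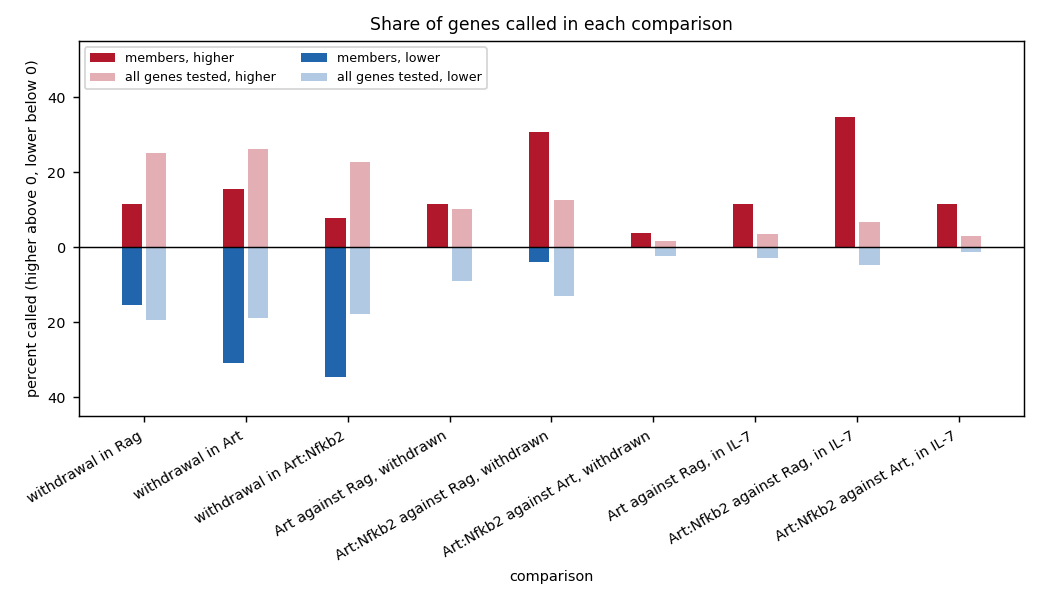
Percent of genes called higher (bars above 0) and lower (bars below 0) in each comparison; dark bars are the 26 interferon-stimulated genes and pale bars all 8446 genes tested. The members' higher bars exceed the pale ones in every comparison between genotypes, and stay below them in the 3 withdrawals. Withdrawn, 2 of these bars lie near the pale ones: Art against Rag (11.5% against 10.1%) and Art:Nfkb2 against Art (1 gene, 3.85% against 1.78%).

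Gbp2 and Gbp3 encode guanylate-binding proteins, interferon-induced GTPases that act on pathogen-containing vacuoles. Gbp2 read 9.91, 10.10 and 9.94 in withdrawn Art:Nfkb2 cultures against 12.37, 11.56 and 12.07 in IL-7 (log2 signal). In Art cultures Gbp2 read 9.81, 10.35 and 9.83 withdrawn and 11.80, 11.99 and 12.06 in IL-7, and in Rag cultures 8.91, 9.73 and 9.21 withdrawn and 10.45, 11.64 and 11.14 in IL-7. Withdrawn and IL-7 arrays did not overlap in any genotype (the same held for 57.5%, 57.1% and 45.4% of all genes in Art:Nfkb2, Art and Rag cells), and the differences were -2.02 (SE 0.28, adjusted p = 3.93e-05), -1.95 (4.11e-05) and -1.79 (0.000108) in Art:Nfkb2, Art and Rag cells. Gbp3 read 9.98, 9.81 and 9.96 withdrawn and 11.60, 10.99 and 11.59 in IL-7 in Art:Nfkb2 cultures. The Gbp3 values were 9.90, 10.47 and 9.78 against 11.59, 11.46 and 11.60 in Art cultures, and 9.35, 9.77 and 9.28 against 10.96, 11.70 and 11.38 in Rag cultures. Again no arrays overlapped, with differences of -1.48, -1.50 and -1.88 (adjusted p = 6.63e-05, 4.58e-05 and 5.71e-06). Both falls held under every alternative and without any 1 array in all 3 genotypes. With the macrophage and granulocyte marker signal as a covariate, added after seeing the data, Gbp2 fell by 1.63, 1.61 and 1.28 in Art:Nfkb2, Art and Rag cells.

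Among the immunity-related GTPases, Igtp (Irgm3) fell in Art:Nfkb2 and Art cells. Its difference was -1.05 in Art:Nfkb2 (adjusted p = 9.58e-05), -0.48 in Art (0.0224) and 0.00 in Rag cells (0.995). Igtp read 10.20, 10.07 and 10.25 in withdrawn Art:Nfkb2 cultures against 11.55, 10.81 and 11.32 in IL-7, 9.94, 10.02 and 10.10 against 10.32, 10.59 and 10.59 in Art cultures, and 9.92, 10.08 and 10.08 against 10.23, 10.08 and 9.77 in Rag cultures. The withdrawn arrays of all genotypes lay between 9.92 and 10.25, and it was the IL-7 arrays that spread. The Art call for Igtp was lost without any 1 of IL-7 arrays 2 and 3 and withdrawn arrays 1 and 2 (-0.47 to -0.43, adjusted p 0.0548 to 0.075). Irgm1, which directs IRG proteins to membranes, was called higher in Art cells (0.25, adjusted p = 0.0412), but its other detected probe read lower and the mean of its probes differed by -0.02 (adjusted p = 0.901); dropping 1 array ended the call in 4 cases (IL-7 arrays 1 and 3, withdrawn arrays 1 and 2; 0.20 to 0.25).

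OAS enzymes make the oligoadenylates that activate RNase L, and Oasl2 belongs to their family. Oasl2 read 6.43, 6.59 and 6.90 in withdrawn Art:Nfkb2 cultures against 8.18, 7.68 and 8.30 in IL-7, 6.61, 6.14 and 6.36 against 6.80, 7.65 and 7.08 in Art cultures, and 5.48, 5.12 and 5.96 against 6.29, 6.49 and 7.10 in Rag cultures. Withdrawn arrays lay below the IL-7 arrays of their own genotype without overlap. The differences were -1.41 in Art:Nfkb2 (SE 0.27, adjusted p = 0.00066) and -0.81 in Art cells (0.0214). In Rag cells Oasl2 was not detected on any withdrawn array, so it was at least 1.22-fold lower (means 5.52 against 6.63, adjusted p = 0.00358). Dropping Art array 2 of either state ended the Art call (-0.69 to -0.57, adjusted p 0.082 to 0.107). The marker covariate ended the Art call (-0.55, adjusted p = 0.158) and the Rag call (adjusted p = 0.132). Oas2 was called lower in Art:Nfkb2 and Art cells (adjusted p = 0.00208 and 0.00531), but it was undetected on every withdrawn array of both and, in Art cells, on every IL-7 array too. No fold is given, and 1 of the 8 members counted lower in Art cells is thus a gene below background in both states.

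The remaining withdrawal calls were smaller. Ifi27l2a, an interferon-induced mitochondrial protein, fell by 0.95 in Art:Nfkb2 (adjusted p = 7.48e-05) and 0.63 in Art cells (0.00176), and in Rag cells its difference was -0.13 (0.475). Psmb9 fell by 0.56, 0.63 and 0.70 in Art:Nfkb2, Art and Rag cells, whereas Psmb10, another catalytic subunit of the immunoproteasome, rose by 0.22 in Art and 0.34 in Rag cells and differed by 0.04 in Art:Nfkb2 cells. Psmb8, the remaining catalytic subunit, fell by 0.34 in Art cells, so the 3 subunits did not move together. Irf1, a transcription factor that drives class I and GBP genes, fell by 0.67 in Art:Nfkb2 cells (adjusted p = 2.99e-05) and differed by -0.17 in Art and -0.02 in Rag cells, neither called. Of the ISGF3 subunits, Stat2 rose by 0.49 in Art cells (0.019) and Irf9 by 0.58 in Rag cells (0.00733). The Stat2 call was lost under median scaling (0.46, adjusted p = 0.0697) and with the marker covariate (0.41, 0.101), and the Irf9 call with only the compared groups fitted (0.58, 0.052) and with the covariate (0.56, 0.0691). Ifit2, which binds viral RNA, rose by 0.54 in Art:Nfkb2 and 0.53 in Art cells by its brighter probe; its other probe differed by 0.08 and 0.33, and with the mean of both the Art:Nfkb2 difference was 0.31 and not called (adjusted p = 0.127). Ddx58 (RIG-I), the sensor of triphosphate RNA, rose by 0.36 in Art:Nfkb2 and 0.32 in Rag cells. Rsad2 (viperin) was undetected on every withdrawn Art:Nfkb2 array and at least 1.06-fold lower than in IL-7 (means 5.56 against 6.37, adjusted p = 0.0193), with arrays that overlapped. Several of these calls were lost when 1 array was dropped. In Art cells that held for Ifit2 (IL-7 arrays 1 and 2, withdrawn 1 and 2; 0.39 to 0.56), Stat2 (IL-7 array 3, withdrawn 1; 0.32 to 0.46), Psmb8 (IL-7 arrays 1 and 3, withdrawn 1 and 2; -0.33 to -0.29) and Psmb10 (IL-7 arrays 1 and 3, withdrawn 1 to 3; 0.17 to 0.24). In Art:Nfkb2 cells it held for Ifit2 (IL-7 arrays 1 to 3, withdrawn 2 and 3; 0.50 to 0.56), Ddx58 (IL-7 arrays 2 and 3, withdrawn 1 and 3; 0.27 to 0.38) and Rsad2 (IL-7 array 3, withdrawn 1 and 2; adjusted p 0.0521 to 0.109), and in Rag cells for Ddx58 (IL-7 arrays 1 and 2, withdrawn 1 to 3; 0.26 to 0.36). Under median scaling the Rag calls of Ddx58 (0.16, adjusted p = 0.556) and Psmb10 (0.25, 0.0744) were lost. So were those of Ddx58 in Art:Nfkb2 cells (0.45, 0.064) and of Ifit2, Psmb8 and Psmb10 in Art cells (adjusted p 0.0615 to 0.139). Without background correction the Rag rise of Ddx58 was 0.23 and not called (0.0575).

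Between genotypes, every called member was higher in Art:Nfkb2 or Art cells than in the genotype it was set against, with 1 exception, Ifi27l2a after withdrawal. In IL-7, 9 of 26 members were higher and 0 lower in Art:Nfkb2 than in Rag cells (11.4% of all genes called, 6.68% higher and 4.72% lower), 3 were higher and 0 lower in Art than in Rag cells (6.46%, 3.63% and 2.83%), and 3 were higher and 0 lower in Art:Nfkb2 than in Art cells (4.39%, 3.01% and 1.39%). By limma at an unadjusted p under 0.05 the lower counts were 0, 0 and 0. The shares of all genes at that threshold are not given, so these unadjusted counts back no direction. The median member differences were 0.41, 0.17 and 0.25, or 0.40, 0.17 and 0.20 with undetected genes at their bound, against -0.01, -0.01 and 0.01 for all genes. Scaling to a common median left 6, 2 and 2 higher and 0 lower. It moved the all-gene median by -0.16 for Art:Nfkb2 and -0.14 for Art against Rag, and by -0.02 for Art:Nfkb2 against Art. The share of all genes called under that scaling is not given, so these counts show only how the member counts moved.

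**Figure D2:**
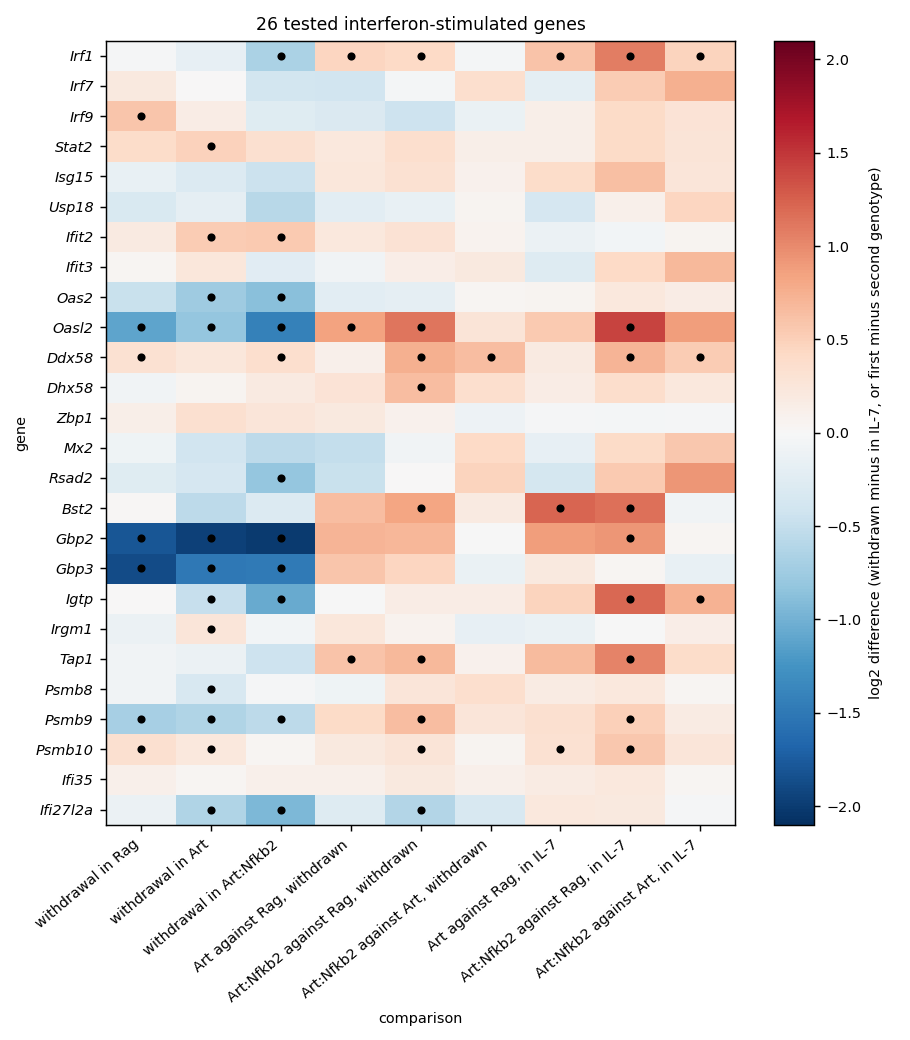
Log2 difference of each of the 26 tested genes (rows, by role) in 9 comparisons (columns); red is higher and blue lower after withdrawal or in the first genotype named, and a dot marks adjusted p at or below 0.05. The darkest blue lies on Gbp2 and Gbp3 under withdrawal, and the Art:Nfkb2 against Rag column in IL-7 is mostly red.

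Irf1 differed between all 3 genotypes in IL-7. Irf1 read 14.32, 14.06 and 14.28 in IL-7 Art:Nfkb2 cultures, 13.65, 13.81 and 13.80 in Art cultures and 13.18, 13.21 and 13.05 in Rag cultures. After withdrawal the values were 13.48, 13.50 and 13.66 in Art:Nfkb2, 13.66, 13.53 and 13.55 in Art, and 13.15, 13.17 and 13.07 in Rag cultures. In IL-7 the 3 genotypes did not overlap, where 27% of all genes did not for Art:Nfkb2 against Rag, 21.6% for Art against Rag and 23.3% for Art:Nfkb2 against Art. After withdrawal Art:Nfkb2 and Art arrays overlapped with each other and both lay above Rag, as 37% and 31.7% of all genes did without overlap in either direction. The IL-7 differences were 1.07 for Art:Nfkb2 against Rag (SE 0.09, adjusted p = 9.78e-07), 0.60 for Art against Rag (0.000588) and 0.46 for Art:Nfkb2 against Art (0.00689). After withdrawal they were 0.41, 0.45 and -0.03 (adjusted p = 0.00253, 0.00195 and 0.935). The Art:Nfkb2 against Art call in IL-7 was lost with the marker covariate (0.47), the mean of all probes (0.44) and a fit of those groups alone (0.46, adjusted p 0.0575 to 0.0683 over the 3), and the other calls of Irf1 between genotypes held under every alternative.

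Tap1, a subunit of the transporter that carries peptides to class I molecules, read 10.98, 10.74 and 11.16 in IL-7 Art:Nfkb2 cultures, 10.71, 10.75 and 10.26 in Art cultures and 10.30, 9.76 and 9.68 in Rag cultures. After withdrawal Tap1 read 10.54, 10.41 and 10.64, then 10.33, 10.50 and 10.51, then 10.14, 9.46 and 9.92 in the same order of genotypes. Art:Nfkb2 arrays lay above Rag arrays in both states, and the differences were 1.05 in IL-7 (SE 0.19, adjusted p = 0.0019) and 0.69 withdrawn (0.0151). Art against Rag was 0.60 withdrawn (0.0386), and 0.66 in IL-7 (0.054), which missed the threshold. The withdrawn Art call was lost without any 1 of Rag arrays 2 and 3 and Art arrays 1 to 3 (0.41 to 0.66, adjusted p 0.0554 to 0.15) and under median scaling (0.56, 0.142), and the withdrawn Art:Nfkb2 call without Rag array 2 or Art:Nfkb2 array 3 (0.50 to 0.63).

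Bst2 (tetherin), which holds budding virus at the membrane, read 10.67, 9.50 and 9.65 in IL-7 Art:Nfkb2 cultures, 10.15, 10.05 and 9.85 in Art cultures and 8.41, 9.21 and 8.75 in Rag cultures. Withdrawn values were 9.71, 9.33 and 9.91 in Art:Nfkb2, 9.67, 9.27 and 9.44 in Art and 8.34, 8.94 and 9.17 in Rag cultures. Rag arrays were the lowest in both states, and Art:Nfkb2 culture 1 in IL-7 stood apart from its group. Bst2 was higher than in Rag cells by 1.15 in Art:Nfkb2 and 1.23 in Art cells in IL-7 (SE 0.29, adjusted p = 0.0154 and 0.0176), and by 0.83 in withdrawn Art:Nfkb2 cells (0.0442). Without IL-7 Art:Nfkb2 array 1 or Rag array 1 the first difference was 0.79 to 0.96 and no longer called (adjusted p 0.0618 to 0.0742). The Art call was lost without any 1 of Rag arrays 1 and 3 and Art arrays 1 and 2 (1.04 to 1.21), and the withdrawn call without any 1 of Art:Nfkb2 arrays 1 and 3 and Rag arrays 1 and 2 (0.59 to 0.90) and with the marker covariate (0.37, adjusted p = 0.395).

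Igtp in IL-7, by the values above, was 1.20 higher in Art:Nfkb2 than in Rag cells (adjusted p = 0.000112) and 0.73 higher than in Art cells (0.0152). The second of these was lost without Art array 1 or Art:Nfkb2 array 1 or 3 (0.57 to 0.68). Oasl2 was 1.43 higher in Art:Nfkb2 than in Rag cells in IL-7 (adjusted p = 0.00215). Gbp2 was 0.92 higher in the same comparison (0.0413), with arrays that overlapped, and the call was lost without any 1 of Rag arrays 1 and 3 and Art:Nfkb2 arrays 1 and 3 (0.61 to 0.95). Ddx58, Psmb9 and Psmb10 were higher by 0.71, 0.51 and 0.57, and Psmb10 was also 0.32 higher in Art than in Rag cells. The Psmb9 call was lost without any 1 of Art:Nfkb2 arrays 1 and 3 and Rag arrays 2 and 3 (0.42 to 0.51), and the Psmb10 call of Art without any 1 of Art arrays 1 and 2 and Rag arrays 1 and 3 (0.27 to 0.31). Under median scaling Ddx58 (0.55, adjusted p = 0.0726), Psmb9 (0.35, 0.231) and Gbp2 (0.75, 0.0788) were not called against Rag cells.

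After withdrawal, 8 members were higher and 1 lower in Art:Nfkb2 than in Rag cells (25.6% of all genes called, 12.6% higher and 13% lower), and 3 were higher and 0 lower in Art than in Rag cells (19%, 10.1% and 8.89%; 1 member was lower at an unadjusted p under 0.05 by limma). The 8 were Irf1, Oasl2, Ddx58, Dhx58, Bst2, Tap1, Psmb9 and Psmb10, and the lower gene was Ifi27l2a, at -0.62 (adjusted p = 0.00351). Against Art cells, 1 member, Ddx58, was higher in Art:Nfkb2 cells and 0 were lower (3.99%, 1.78% and 2.21%, with 1 lower at an unadjusted p under 0.05). The counts at an unadjusted p have no share of all genes to be read against. The median member differences were 0.26, 0.21 and 0.09, or 0.26, 0.15 and 0.08 at the bound, against -0.01, -0.01 and 0.00 for all genes. Oasl2, undetected in withdrawn Rag cells, was at least 1.24-fold higher in Art:Nfkb2 (means 6.64 against 5.52, adjusted p = 0.00525) and at least 1.02-fold higher in Art cells (6.37 against 5.52, adjusted p = 0.036). The Art call was lost without any 1 of Art arrays 1 and 3 and Rag arrays 1 and 2 (adjusted p 0.083 to 0.129), the Art:Nfkb2 call with the marker covariate (adjusted p = 0.0571), and the Psmb10 call without any 1 of Art:Nfkb2 arrays 2 and 3 and Rag array 1 (0.20 to 0.28).

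Ddx58 showed a difference between Art:Nfkb2 and both other genotypes in both states. Ddx58 averaged 8.93 ± 0.08 in withdrawn Art:Nfkb2 cells, 8.29 ± 0.17 in Art cells and 8.19 ± 0.11 in Rag cells (SD, n = 3), and 8.58 ± 0.15, 8.05 ± 0.18 and 7.87 ± 0.18 in IL-7. It was higher in Art:Nfkb2 than in Rag cells by 0.74 withdrawn (adjusted p = 0.000317) and higher than in Art cells by 0.64 withdrawn (0.00604) and 0.53 in IL-7 (0.0247); withdrawn Art:Nfkb2 and Art arrays of Ddx58 did not overlap, as for 25.2% of all genes. The last call was lost without any 1 of Art arrays 2 and 3 and Art:Nfkb2 arrays 1 and 3 (0.43 to 0.55), and both calls against Art with the marker covariate. Dhx58 (LGP2), a regulator of RIG-I signalling, was 0.64 higher in withdrawn Art:Nfkb2 than in Rag cells (0.00109), and that call held under every alternative. Zbp1, a sensor of Z-form nucleic acid, was called in no comparison.

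**Figure D3:**
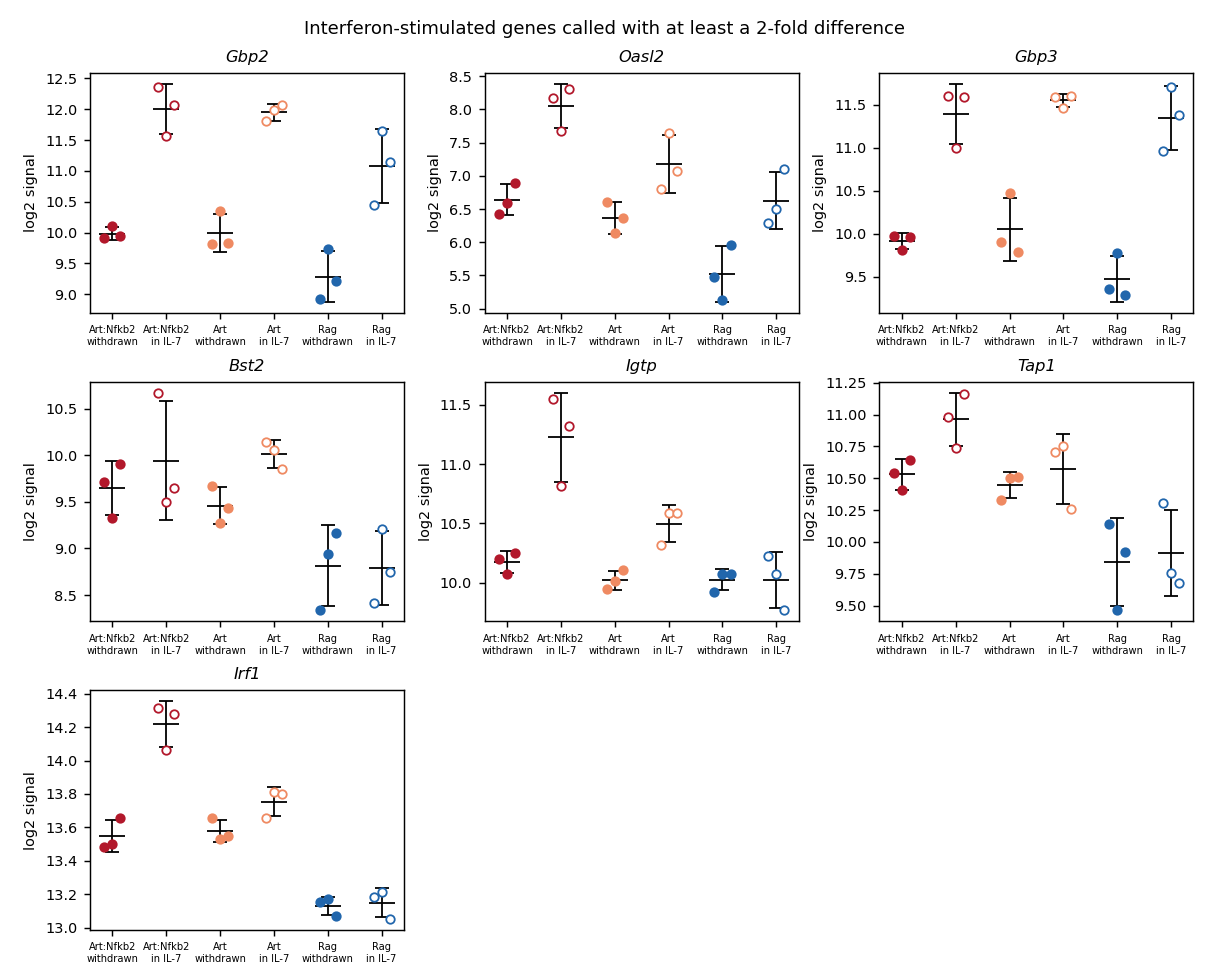
Log2 signal on each array for the 7 genes called with a difference of at least 1 log2 unit between groups that do not overlap; filled points are withdrawn arrays, open points IL-7 arrays, and bars show the mean ± SD of 3 cultures. Gbp2 and Gbp3 split by IL-7. Within each state Irf1 and Bst2 are lowest in Rag arrays, and Tap1 is lower in Rag than in Art:Nfkb2 arrays. Tap1 in IL-7 Art arrays overlaps with both other genotypes. Igtp stands out in IL-7 Art:Nfkb2 arrays, between 10.81 and 11.55.

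In all, 19 of the 26 genes were called in at least 1 of these 9 comparisons. Ifit3, Isg15, Irf7, Mx2, Usp18, Ifi35 and Zbp1 were called in none. This group holds the ubiquitin-like modifier Isg15 and its protease Usp18, the interferon-induced factor Irf7 and the antiviral GTPase Mx2. With the marker covariate in limma, Ifit3 was called higher on withdrawal in Rag (0.88, adjusted p = 0.025) and Art cells (0.79, 0.0145). Irf7 was then called higher in Rag cells (0.89, 0.0139), where it was detected on 0 IL-7 arrays and 1 withdrawn array. Irf7 read between 5.06 and 6.44, Usp18 between 5.97 and 7.40 and Mx2 between 6.12 and 7.82, while Isg15 read between 7.32 and 8.50 and Ifi35 between 9.50 and 9.96. Where a called gene had another detected probe, the other probes had the same sign in 21 of 22 values; the exception was Irgm1 in Art withdrawal.

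Whether genotype changed the response to withdrawal was tested as a difference of differences. Of 26 members 0 were called for Art minus Rag (1.27% of all genes called, 0.781% higher and 0.485% lower; 3 members at an unadjusted p under 0.05 by limma) and 0 for Art:Nfkb2 minus Art (0.213%, 0.107% in each direction; 3 members). These contrasts share samples. Art:Nfkb2 minus Rag was added after the data were seen and called 3 members, all lower (1.94%, 0.995% higher and 0.947% lower; 5 members at an unadjusted p under 0.05). Irf1 changed on withdrawal by -0.83, -0.56 and -0.62 in Art:Nfkb2 cultures and by -0.03, -0.04 and 0.02 in Rag cultures, a difference of -0.65 (adjusted p = 0.0126). Igtp changed by -1.35, -0.74 and -1.07 in Art:Nfkb2 cultures and by -0.30, 0.00 and 0.31 in Rag cultures (-1.05, adjusted p = 0.0207), and Ifi27l2a by -1.09, -0.91 and -0.83 against -0.15, -0.16 and -0.07 (-0.82, adjusted p = 0.0428). These p-values come from the fit of the 6 groups, which does not pair the arrays of a culture. They therefore do not measure the spread of the changes printed by culture. Counts with culture as a block are given in the last section. Median scaling left 0 calls. All shares of all genes are at adjusted p, and those at an unadjusted p are not given here or above. The member counts at an unadjusted p thus have no share to be read against.

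**Figure D4:**
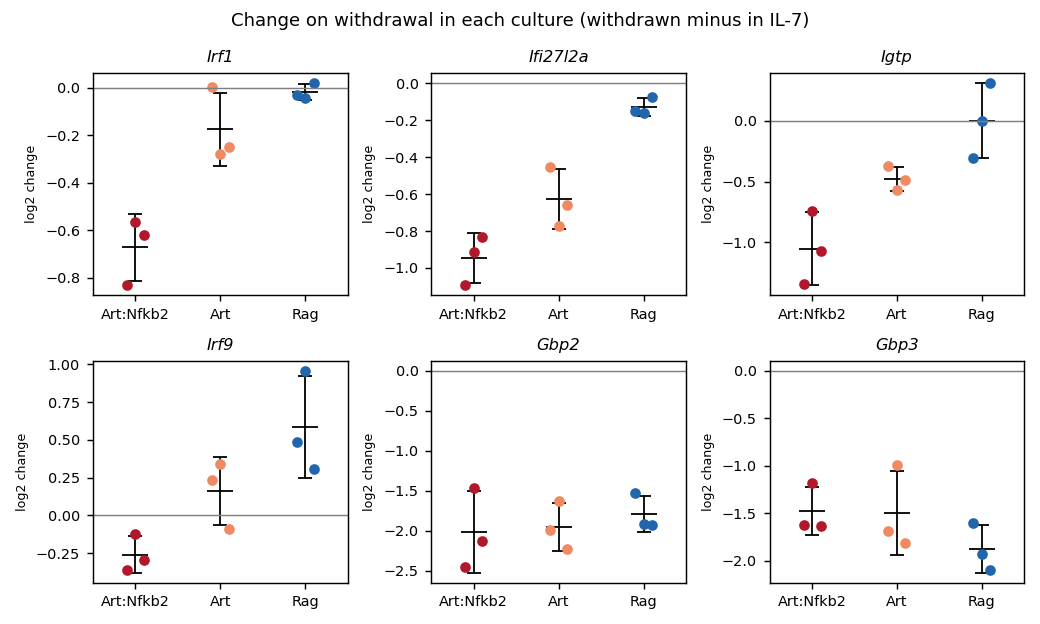
Log2 change on withdrawal (withdrawn minus in IL-7) in each of 3 cultures per genotype for 6 genes, with mean ± SD bars and a line at 0. Irf1, Ifi27l2a and Igtp changed more in Art:Nfkb2 than in Rag cultures, Irf9 had values below 0 in Art:Nfkb2 and above 0 in Rag cultures, and Gbp2 and Gbp3 had changes below 0 in every culture.

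Upstream of these genes, 16 of 20 listed interferon ligand genes had a probe on the platform and 2 passed the filter (Ifna1 and Ifna6). The only call was that of Ifna6, higher on withdrawal in Rag cells (0.39). Ifna6 read between 7.35 and 8.15 on all arrays. Ifna1 read between 5.95 and 6.59, near the lowest signal among detected probes (5.98 to 6.38 over the arrays). Of 11 tested receptor and JAK-STAT genes, 5 rose and 1 fell on withdrawal in Art:Nfkb2 cells, 6 rose and 1 fell in Art cells, and 5 rose and 1 fell in Rag cells. Over all genes 22.7%, 26.2% and 25% rose and 17.9%, 18.8% and 19.4% fell in the same order. The gene that fell in all 3 was Socs3, an inhibitor of JAK signalling, by 1.25, 1.79 and 1.60. Jak1 rose by 1.02 in Art cells, and Ifngr1, a subunit of the interferon gamma receptor, was 0.73 higher in withdrawn and 0.63 higher in IL-7 Art:Nfkb2 than in Rag cells (adjusted p = 5.32e-05 and 0.000627). Socs1 was undetected in withdrawn Art cells and at least 1.31-fold lower than in withdrawn Rag cells (adjusted p = 0.00331). Of 18 nucleic acid sensing genes, 7 rose and 2 fell in Art:Nfkb2, 9 and 2 in Art, and 10 and 1 in Rag cells on withdrawal, to be read against those shares. Aim2, a cytosolic DNA sensor, was higher in Art:Nfkb2 than in Art cells by 1.45 withdrawn and 1.66 in IL-7 (adjusted p = 6.84e-05 and 4.99e-05). The related genes named here and below were not followed under the alternatives or with the marker covariate, so how firm their calls are was not tested.

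The largest withdrawal change on these lists was that of another guanylate-binding protein gene, Gbp7. Gbp7 read 5.05, 5.05 and 5.47 in withdrawn Art:Nfkb2 cultures against 9.22, 8.78 and 9.46 in IL-7, and was at least 7.28-fold lower (adjusted p = 1.05e-09). It was undetected on all withdrawn arrays of the other genotypes too, at least 8.60-fold lower in Art and at least 9.25-fold lower in Rag cells. Ifitm2 and Ifitm3, membrane proteins that block virus entry, fell in every genotype, with differences of -2.45 and -2.51 in Art:Nfkb2, -2.27 and -2.34 in Art, and -1.74 and -2.70 in Rag cells. Shisa5, an interferon-induced endoplasmic reticulum protein, rose by 0.90, 1.29 and 1.33 and was higher in Art:Nfkb2 than in Rag cells by 1.16 withdrawn and 1.59 in IL-7. Of the 29 tested genes of this list of other interferon-induced genes, 9 rose and 10 fell on withdrawal in Art:Nfkb2, 9 rose and 9 fell in Art, and 13 rose and 10 fell in Rag cells, against the same shares of all genes. In IL-7, 11 of the 29 were higher and 0 lower in Art:Nfkb2 than in Rag cells (all genes 6.68% higher and 4.72% lower). Among 11 class I partners, 7 were higher and 1 lower in withdrawn and 4 higher and 0 lower in IL-7 Art:Nfkb2 than in Rag cells, where withdrawn 12.6% of all genes were higher and 13% lower. H2-K1 and H2-D1, class I heavy chains, were higher by 1.17 and 1.11 in IL-7, and Nlrc5, the class I transactivator, was 1.04 lower in withdrawn Art:Nfkb2 than in Rag cells and fell on withdrawal in Art:Nfkb2 (adjusted p = 4.21e-07) and, by 1.06, in Art cells (1.6e-05).

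**Figure D5:**
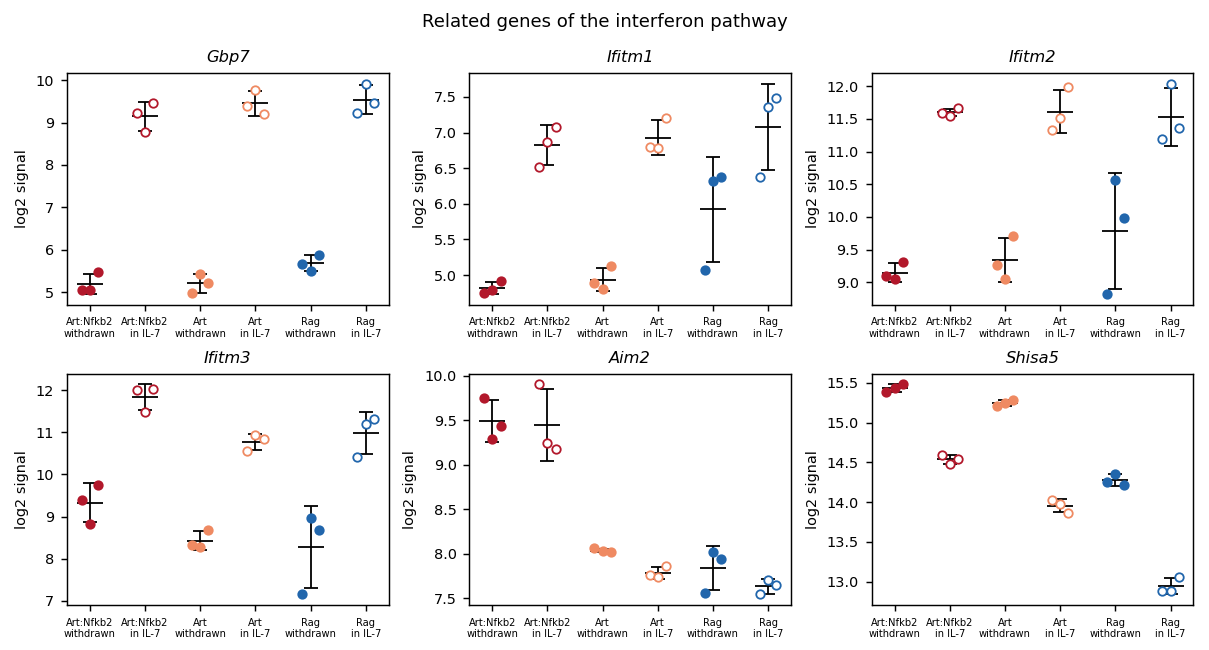
Log2 signal on each array for 6 related genes that are not on the list of 38; filled points are withdrawn arrays, open points IL-7 arrays, and bars show the mean ± SD of 3 cultures. Gbp7 and the Ifitm genes drop with withdrawal, Aim2 is high in both Art:Nfkb2 groups, and Shisa5 rises with withdrawal in every genotype.

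Of 14 tested macrophage and granulocyte markers, 9, 3 and 8 fell on withdrawal in Art:Nfkb2, Art and Rag cells, where 17.9%, 18.8% and 19.4% of all genes fell. The Art count was near that of all genes, but all 14 differences were below 0 in each genotype. Their medians were -1.38, -0.78 and -1.28 in the same order, against 0.09, 0.11 and 0.10 for all genes. In IL-7, 6 of the 14 were called higher and 0 lower in Art:Nfkb2 than in Art cells, where 3.01% of all genes were higher. All 14 differences were above 0 there, with a median of 1.40. Against Rag cells in IL-7, 1 was higher and 0 lower. The summed signal reached its highest values in IL-7 Art:Nfkb2 arrays. With that signal as a covariate, added after seeing the data, 8 members were higher and 0 lower in IL-7 Art:Nfkb2 than in Rag cells. Against Art cells in IL-7 0 were called, and 5 were higher and 1 lower in withdrawn Art:Nfkb2 than in Rag cells. Withdrawn Art:Nfkb2 against Art cells then gave 0 higher and 1 lower (Ifi27l2a, -0.61, adjusted p = 0.0259), in place of 1 higher and 0 lower, and Ddx58 was no longer called there (0.49, adjusted p = 0.113). Art against Rag gave 6 withdrawn and 4 in IL-7, all higher. The share of all genes called with the covariate is not given here, so these counts are no result about the members as a group. IL-7 Art:Nfkb2 array 2 read below its group mean for 25 of 26 members (mean deviation -0.25), and Art:Nfkb2 culture 3, the Y-positive one, above it for 22 of 26 in both states. Without culture 3, 1 member was called in IL-7 against Art cells.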

How the data were processed

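Total RNA of 18 samples from 9 cultures was hybridised to Illumina MouseRef-8 arrays, per the labels. The authors deposited signal intensities and detection p-values that were not normalized; the submitters' processing notes name GenomeStudio and Partek, with no versions, and the sources used here give no further step. The authors also deposited a second table of intensity values per array, on a linear scale and with a normalization that the sources used here do not state; 29.6% of its values are below 0, and it was floored at 16 and used as an alternative only. Genes were named from the platform annotation (23978 probes with 1 symbol, 0 with several, 1719 unnamed). Intensities were background-corrected with normexp using the detection p-values (offset 16), then quantile-normalized and log2-transformed (neqc, limma 3.58.1, R 4.3.3). Probes with a detection p below 0.01 on 3 or more arrays were kept (11356), the brightest per gene, leaving 8446 genes. limma's lmFit and eBayes were fitted over all 6 groups, without a term for culture. The p-values were two-sided and adjusted by Benjamini-Hochberg over all genes of a comparison, with a threshold of 0.05. The script was checked on simulated data. A gene undetected on every array of 1 group has only a bound there: its brighter group's mean is set against, per array, the higher of its own signal and the lowest signal among detected probes.

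The 38 members, the related gene lists and the markers were chosen with earlier results of these data known. Genes named with a value on every array are members called with a difference of at least 1 log2 unit between groups that do not overlap; the related genes named are among those called with at least 1 log2 unit, plus Ifngr1, Ifna1 and Ifna6, named after their values were seen. The submitters' design text calls the 3 cultures of a genotype independent, and replicate numbers in the titles pair withdrawn and IL-7 arrays: deviations from the group means correlated at 0.374 to 0.588 in all 9 cultures. Alternatives were no background correction, median scaling, the second deposited table, no or a stricter filter on dim probes (9 arrays), the mean of all probes, culture as a block, a trended robust prior, only the groups compared, and leaving out each array or the Y-positive Art:Nfkb2 culture; the marker signal as a covariate was added after the data were seen. The number of arrays limits the precision. Microarray signal gives no counts, and levels of different probes are not compared.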

Additional observations from a re-analysis of the deposited data

Results flagged for a closer look

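3 genes had a withdrawal response that differed between Art:Nfkb2 and Rag cells by a test of the difference itself, in a contrast added after the data were seen. For Irf1 the difference of the log2 changes was -0.65 (change -0.67 in Art:Nfkb2 and -0.02 in Rag cells), and the call was lost under median scaling and with the mean of all probes. For Igtp the difference was -1.05 (-1.05 and 0.00), and for Ifi27l2a -0.82 (-0.95 and -0.13). Igtp was lost without any 1 of 5 of the 12 arrays (Art:Nfkb2 IL-7 arrays 1 and 3 and withdrawn array 2, Rag array 3 of both states; -1.03 to -0.90, adjusted p 0.0501 to 0.0605) and Ifi27l2a without 10 of 12 (-0.89 to -0.70, adjusted p 0.0513 to 0.115), while Irf1 was kept without any 1 array. Irf9 had changes of -0.36, -0.13 and -0.29 in the 3 Art:Nfkb2 cultures and of 0.48, 0.96 and 0.31 in the 3 Rag cultures. Its difference, -0.84, missed the threshold (adjusted p = 0.0678) in the fit that does not pair the arrays of a culture.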

How the results depend on the processing

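Of 61 called member values, 27 were kept under every setting tried and 34 were lost under at least 1; 188 of 1027 gene-by-setting values were lost and 1 was reversed, Irgm1 on withdrawal in Art with the mean of all probes (-0.0174). Counts that moved by over 1.5 times were these. Median scaling gave 6 called members on withdrawal in Art and 0 for the response of Art:Nfkb2 minus Rag. For Art against Rag withdrawn, no filter gave 1, the trended robust prior 5 and the marker covariate 6. Fitting only the groups compared gave 4 on withdrawal in Rag, 0 for Art:Nfkb2 against Art in IL-7 and 1 for the response of Art:Nfkb2 minus Rag. Without the Y-positive culture the last 2 counts were 1 and 1, and with the marker covariate Art:Nfkb2 against Art in IL-7 gave 0; withdrawn, the covariate replaced the 1 higher call by 1 lower. The cause was not tested. Leaving out 1 array at a time gave 9 to 12 calls on withdrawal in Art:Nfkb2, 6 to 11 in Art and 6 to 8 in Rag. For Art:Nfkb2 against Rag, Art against Rag and Art:Nfkb2 against Art it gave 6 to 9, 1 to 4 and 1 to 4 in IL-7, and 6 to 10, 1 to 4 and 1 to 1 withdrawn. The response differences gave 0 to 0 for both planned contrasts and 1 to 3 for Art:Nfkb2 minus Rag. With culture as a replicate block, withdrawal gave 16, 14 and 8 called members in Art:Nfkb2, Art and Rag, and the response differences 4 for Art:Nfkb2 minus Rag and 0 and 0 for the planned contrasts. As a random block (consensus correlation 0.349) the genotype comparisons gave 10, 4 and 4 in IL-7 and 9, 4 and 1 withdrawn, in the order above. The block ended 1 call, Irgm1 on withdrawal in Art. For counts under these alternatives, here and above, the share of all genes called is not given. They show only how the member counts moved. Signal near background limits Oasl2, Oas2, Rsad2 and Irf7, and 3 arrays a group limit every value.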
